A study of Mus musculus with 2 samples.

Results

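The 10 genes described here encode chains of cytokine and interferon receptors: Il2rb, Il2rg, Il4ra, Il21r, Il15ra, Il6ra, Il6st, Ifngr1, Ifngr2 and Ifnar1. They were taken by symbol from the 24346 genes of the deposited tables, and all 10 were found in both. RNA was sequenced from splenic CD4+ T cells of mice, sorted at day 14 from animals labelled HFD-MI, a model that the series title ties to remodelling after myocardial infarction. One library came from animals treated with probucol, a cholesterol-lowering antioxidant drug, and 1 library from untreated animals. The sources used here do not give the genotype, strain, age or number of the animals, and leave the word HypoE in the headers of both tables unexplained. Each group is a single library, so every difference below is between 2 libraries, has no replicate check and carries no p-value.

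Cytokine receptors of these families have no kinase of their own. Binding of the ligand brings chains together, Janus kinases bound to their tails phosphorylate the receptor, and STAT transcription factors dock there and move to the nucleus. Chains are shared: the common gamma chain serves several interleukin receptors of T cells, gp130 serves the IL-6 family, and each interferon receptor is built from 2 different chains. In CD4+ T cells these receptors read the signals that set survival, helper lineage and antiviral state.

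Depth and purity bear on every value. Each library rested on an estimated 9.64e+06 fragments with probucol and 9.63e+06 untreated, counted over genes with a known length. At this near-equal depth 14289 of the 24346 symbols were above 0 with probucol and 16876 untreated. All 8 T cell markers were measured in both libraries, with summed levels of 4230 and 4278 FPKM (fragments per kilobase of transcript, relative to all mapped fragments). Here and below, where values come in pairs, the probucol library is first and the untreated library second. Of the T cell markers 2 were higher with probucol and 6 lower. Cd4, 1 of the higher ones, was at 334 and 284 FPKM. The CD8 chain genes Cd8a and Cd8b1 were at 0.139 and 0.276 FPKM and at 15.9 and 19.6 FPKM. Markers of other blood cells were also present and differed. The summed B cell list was 66.5 and 24.7 FPKM, with 6 of its 7 compared genes at least 2-fold higher with probucol, 1 lower, and the defining factor Pax5 at 0 in both and Blnk at 0 untreated. The erythroid sum was 296 and 981 FPKM with all 8 compared genes lower, the neutrophil sum 1078 and 961 FPKM with 8 of 9 higher, the macrophage sum 183 and 177 FPKM with 5 of 8 higher, and the natural killer sum 59.2 and 55.0 FPKM with 2 of 6 higher and Klra8 at 0 in both. Without Prf1, which makes up most of it, the natural killer sum was 9.31 and 18.7 FPKM. Dendritic cell markers summed to 2.66 and 3.48 FPKM, with Clec9a and Itgax at 0 untreated, and platelet markers to 5.09 and 2.80 FPKM. B cells and myeloid cells also carry several of these receptors. The part of such cells in the values below was not tested, and in bulk RNA fewer cells of a type and less RNA per cell cannot be told apart.

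The promoters of the highest gene and of the interferon gamma receptor chains are shown because these genes carry the main results on levels and ratios. RefSeq holds a promoter window for 9 of the 10 genes, with 10 windows in all, each from 250 bases before to 50 after a gene start (build GRCm38.p6). Printed are the 250 bases before the start, on the gene's own strand, with GC boxes (GGGCGG or its reverse complement) in capitals for the interferon receptor genes and an ETS-type motif (CCGGAAG on either strand) in capitals for Il2rg.
Ifngr1, chr10:19591699-19591948, plus strand: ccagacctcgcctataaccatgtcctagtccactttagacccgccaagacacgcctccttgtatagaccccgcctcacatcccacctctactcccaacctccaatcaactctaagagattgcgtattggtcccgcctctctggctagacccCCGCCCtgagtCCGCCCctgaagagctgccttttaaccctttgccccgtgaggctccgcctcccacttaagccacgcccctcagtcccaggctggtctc
Ifngr2, chr16:91546809-91547058, plus strand: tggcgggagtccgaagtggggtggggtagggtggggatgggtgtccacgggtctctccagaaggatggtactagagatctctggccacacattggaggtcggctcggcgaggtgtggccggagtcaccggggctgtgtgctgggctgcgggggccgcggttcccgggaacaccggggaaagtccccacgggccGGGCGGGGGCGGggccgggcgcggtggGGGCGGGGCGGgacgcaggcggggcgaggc
Il2rg, chrX:101268256-101268505, minus strand: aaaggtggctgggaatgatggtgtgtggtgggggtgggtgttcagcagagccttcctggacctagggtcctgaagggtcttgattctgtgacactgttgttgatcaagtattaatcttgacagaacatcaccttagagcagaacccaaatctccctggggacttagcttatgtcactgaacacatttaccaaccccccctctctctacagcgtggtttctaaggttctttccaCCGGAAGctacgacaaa
The Ifngr1 stretch held 2 GC boxes and the Ifngr2 stretch 4, of which the first pair abut and the second pair overlap by 1 base. A GC box was found in 7 of the 10 windows of these genes, against 35.7% of all 32851 windows. The GC content of the 10 windows ran from 50.3% to 74.3%, beside a median of 52.7% over all windows. The ETS-type motif was in windows of Il2rg, Il15ra and Ifnar1, against 8.86% of all windows. The STAT-type motif TTCNNNGAA was found in the Ifnar1 window alone among these genes (8.30% of all windows). The RUNX-type motif TGTGGTT and the TATA motif TATAAA matched 0 of the 10 windows, against 5.27% and 13.6% of all. All motifs were searched on both strands. These are matches of letters in short windows and say nothing about binding.

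Levels within a library spanned more than 2 orders of magnitude, from about 10 FPKM for Il15ra to about 1500 FPKM for Il2rg, and the order was nearly the same in both libraries. Il2rg was highest, followed by Ifngr1, Il2rb, Il21r and Il4ra, and neighbours in this upper part were separated beyond their counting intervals, which cover the error of the estimated fragment numbers only. Ifngr2, Il6st and Il6ra lay close together below them. With probucol their order was Ifngr2, Il6st, Il6ra and untreated it was Il6st, Ifngr2, Il6ra, and neighbours among these 3 genes had overlapping 95% intervals in both libraries. Taking the longest transcript of each gene for the fragment estimate separated Ifngr2 from Il6st with probucol. Ifnar1 and Il15ra were lowest in both.

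**Figure D1:**
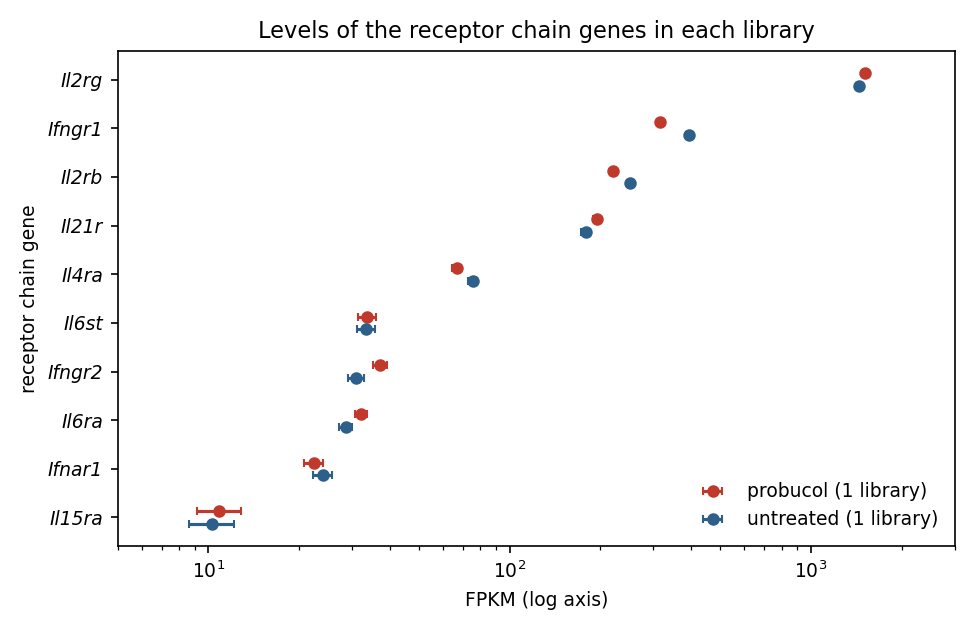
FPKM (log axis) of the 10 receptor chain genes in the probucol and untreated libraries, 1 point per library, with exact Poisson 95% intervals of the estimated fragments. Il2rg stands alone at the top, Il15ra at the bottom, and the points of the libraries lie close for every gene.

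Between libraries the 10 genes were close. On the scale of log2(FPKM + 1), where the added 1 is a pseudocount that damps the ratios of low genes, probucol over untreated, 0 of 10 were at least 2-fold higher and 0 were at least 2-fold lower, where 1.62% and 1.98% of the 10663 genes with a mean of 1 FPKM or more were. At a lower threshold, a log2 ratio of 0.32 in either direction, the counts were again 0 and 0, where 17.8% of those genes were higher and 14.1% lower. Among the 6397 genes with a mean of 10 FPKM or more, which all 10 passed, 12.2% were higher and 9.83% lower by that threshold. The log2 ratios ran from -0.321 for Ifngr1 to 0.26 for Ifngr2, with a median of 0.04, beside 0.02 over all genes compared. Of the 10 genes, 6 were higher (52.7% of all genes compared were) and 4 lower. The 95% counting interval of the FPKM ratio lay above 1 for 4 genes and below 1 for 3. It did so for 28.3% and 23.6% of the 10269 compared genes with a known length, so an interval that leaves out 1 is common between these libraries.

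**Figure D2:**
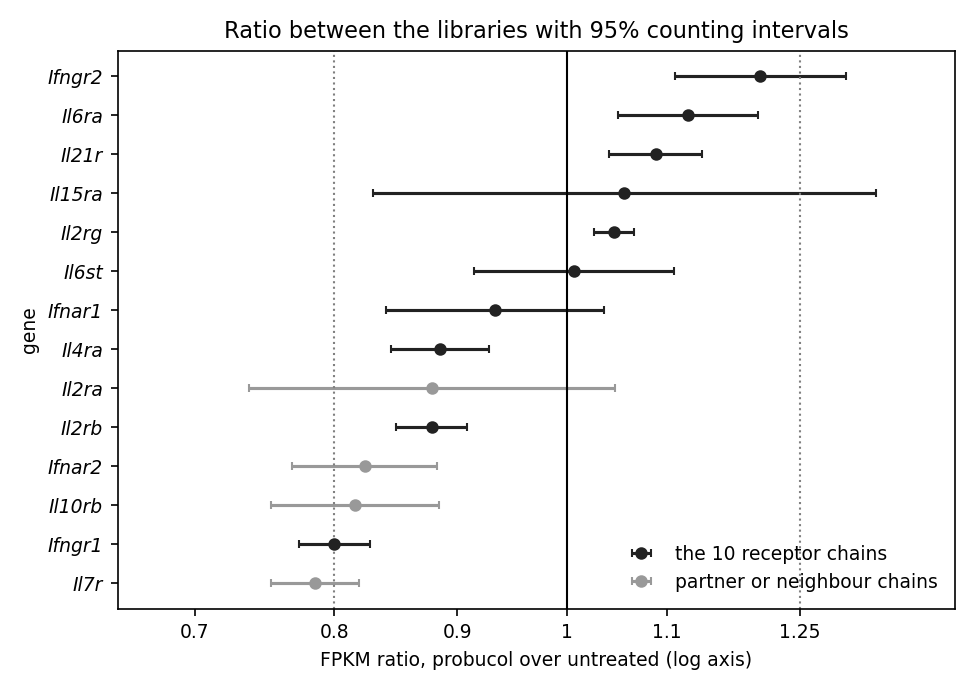
Ratio of FPKM, probucol over untreated (log axis), with exact binomial 95% counting intervals for the 10 receptor chains (black) and the chains Il2ra, Il7r, Ifnar2 and Il10rb (grey). The solid line marks equality and the dotted lines a log2 ratio of 0.32 in either direction. Ifngr1 at 0.800 and Ifngr2 at 1.20 are the lowest and highest of the 10.

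The interferon gamma receptor showed the widest spread, in opposite directions for its chains. Ifngr1 (chromosome 10, 19591949 to 19610229, mm10) encodes the chain that binds interferon gamma. It was at 315 FPKM with probucol and at 394 FPKM without it. The ratio was 0.800 (95% counting interval 0.773 to 0.828, on about 5972 and 7480 fragments), at percentile 9.85 of the ratios of all genes with a mean of 10 FPKM or more. Its log2 ratio lay just short of the lower threshold, and without the pseudocount it lay just past it. Ifngr2 (chromosome 16, 91547072 to 91565623) encodes the chain that brings JAK2 and is needed for signalling; in mice, Th1 cells are known to lower it. It was at 37.1 FPKM with probucol and at 30.8 FPKM without it, for a ratio of 1.20 (1.11 to 1.31), at percentile 83.4 of the same genes. The library with more Ifngr1 was thus the one with less Ifngr2. Ifngr1 was 8.50 times the level of Ifngr2 with probucol and 12.8 times untreated. Put the other way, Ifngr2 was at 0.118 of the Ifngr1 level with probucol (0.111 to 0.125) and at 0.0782 untreated (0.0733 to 0.0834). The ratio of these ratios was 0.665 (0.609 to 0.726), which was the farthest from 1 among the 9 pairs of chains compared. Among pairs made of the 10 genes this follows from the chains having the lowest and highest ratios, so it is not a separate result. Ifngr1 stood above Ifngr2 in both libraries. The ligand Ifng, named here although it falls outside the rule for named genes, was at 16.2 and 17.0 FPKM.

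The chains of the type I interferon receptor lay closer together in level, and both were below Ifngr1. Ifnar1 (chromosome 16, 91485238 to 91507441), the chain that binds the kinase TYK2, was at 22.3 FPKM with probucol and at 23.9 FPKM without it, for a ratio of 0.933 (0.841 to 1.04). Its partner Ifnar2, the high-affinity binding chain, was at 62.1 and 75.4 FPKM, for a ratio of 0.824 (0.768 to 0.883). Ifnar1 was the less abundant chain in both libraries, at 0.360 (0.328 to 0.394) of the Ifnar2 level with probucol and 0.318 (0.291 to 0.346) untreated. Ifnar2, Il10rb, Ifnar1 and Ifngr2 follow each other on chromosome 16 with gaps of 0.574, 59.4 and 39.6 kb. No other annotated protein-coding gene lies wholly within a gap. Il10rb, a chain of the interleukin 10 receptor, was at 67.4 and 82.6 FPKM, for a ratio of 0.816 (0.753 to 0.885). In this cluster Ifnar2 and Il10rb thus had ratios below 1 with intervals that leave out 1, Ifnar1 had an interval that holds 1, and Ifngr2 had a ratio above 1. The annotated protein-coding gene Gm21970 shares exonic bases with both Ifnar2 and Il10rb, so it runs across the gap between them. It is not listed under that symbol in the tables, so reads of these genes may have been split or added.

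Among the common gamma family, the shared chain itself was the most abundant of the 10 genes. Il2rg (chromosome X, 101264378 to 101268255) encodes the common gamma chain, which binds JAK3 and serves the receptors for IL-2, IL-4, IL-7, IL-9, IL-15 and IL-21. It was at 1513 FPKM with probucol and at 1447 FPKM without it, for a ratio of 1.05 (1.03 to 1.07). This placed it at percentile 99.3 of all genes at 1 FPKM or more in each library. The annotated gene Gm20489 shares exonic bases with it on the same strand. Il2rb (chromosome 15, 78479256 to 78495271), the signalling chain of the IL-2 and IL-15 receptors, was at 221 and 252 FPKM, for a ratio of 0.878 (0.849 to 0.909). It stood at percentile 95.2 with probucol and 95.7 untreated. Il2rb thus had the lower level in the library where Il2rg had the higher one.

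The private chains that pair with Il2rg differed in direction. Il4ra (chromosome 7, 125552120 to 125579474), which binds IL-4 and recruits STAT6, was at 66.7 and 75.3 FPKM, for a ratio of 0.885 (0.845 to 0.928). Il21r (chromosome 7, 125603429 to 125633570), the IL-21 receptor chain that signals mainly through STAT3, was at 195 and 179 FPKM, for a ratio of 1.09 (1.04 to 1.14). These genes lie side by side, 24.0 kb apart on the same strand with no protein-coding gene between them, and had ratios on opposite sides of 1. Il15ra (chromosome 2, 11705290 to 11734317), the chain that gives IL-15 its high affinity and can present it to neighbouring cells, was the lowest of the 10. It was at 10.9 and 10.3 FPKM, on about 144 and 137 fragments, and its ratio of 1.06 had the widest interval (0.830 to 1.34). A difference of this size was not detectable at that depth. Il4ra also overlaps the annotated antisense gene Gm44876, and without strand information the reads of the 2 genes cannot be told apart.

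Set against Il2rg within each library, every partner was far less abundant. Il2rg was 6.85 times Il2rb with probucol (6.66 to 7.04) and 5.75 times untreated (5.60 to 5.91). It was 7.77 and 8.09 times Il21r, and 22.7 and 19.2 times Il4ra. The share of Il2rb relative to Il2rg was therefore lower with probucol, at 0.840 of its untreated value (0.808 to 0.873), and that of Il4ra at 0.847 (0.805 to 0.890). For Il21r the interval of the same quantity held 1, at 1.04 (0.992 to 1.09). Il15ra relative to Il2rb was at 1.20, with an interval from 0.950 to 1.52.

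Il7r and Il2ra, other chains of this family, were read beside them, and Il9r is given further below. Il7r, the IL-7 receptor chain of naive and memory T cells, was at 119 FPKM with probucol and at 151 FPKM without it, for a ratio of 0.785 (0.753 to 0.819), lower than that of any of the 10 genes. Relative to Il2rg it stood at 0.0784 with probucol and 0.104 untreated. Il2ra, the chain that makes the IL-2 receptor high-affinity and is abundant on regulatory T cells, was at 9.81 and 11.2 FPKM, for a ratio of 0.879 (0.737 to 1.05). Il2ra was at 0.0444 of the Il2rb level in both libraries. The pairs Il7r with Il2rg and Il2ra with Il2rb were added to the comparison after their values were seen.

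**Figure D3:**
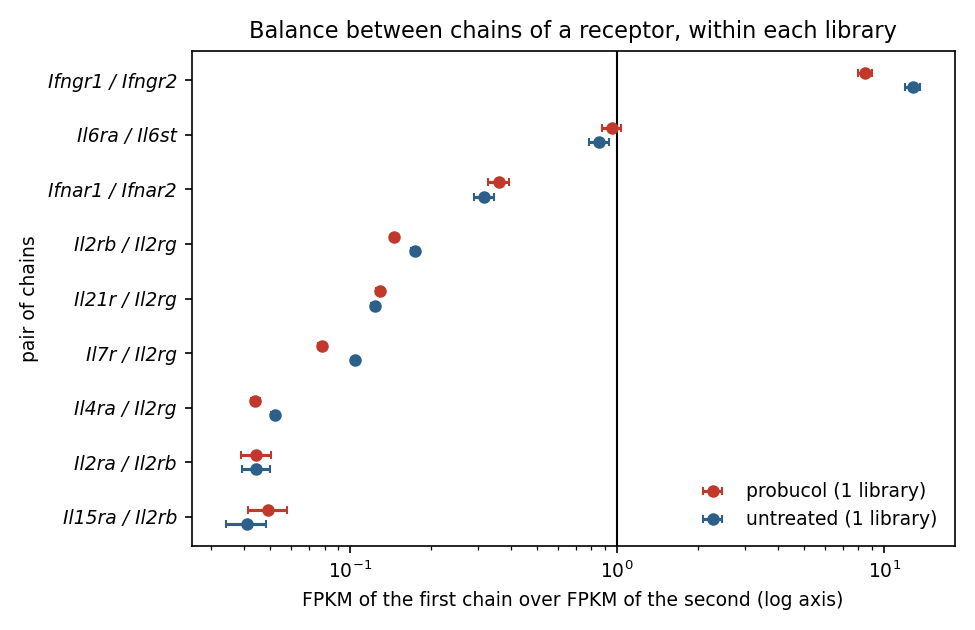
FPKM of the first chain divided by FPKM of the second (log axis) for 9 pairs of receptor chains in each library, with exact binomial 95% counting intervals; the vertical line marks equal levels. Ifngr1 exceeds Ifngr2 by 8.50 times with probucol and 12.8 times untreated, Il6ra and Il6st are near equal, and the first chain is the lower one in the other 7 pairs.

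The IL-6 receptor chains were the most evenly matched. Il6ra (chromosome 3, 89864059 to 89913196), which binds IL-6 and exists in membrane and soluble forms, was at 32.0 FPKM with probucol and at 28.5 FPKM without it, for a ratio of 1.12 (1.05 to 1.20). Il6st (chromosome 13, 112464070 to 112510086) encodes gp130, the signalling chain shared by the IL-6 family. It was at 33.6 and 33.4 FPKM, for a ratio of 1.01 (0.915 to 1.11), the closest to 1 of the 10 genes. Il6ra was at 0.953 of the Il6st level with probucol (0.879 to 1.03) and 0.855 untreated (0.787 to 0.930). The direction of Il6st turned, to a log2 ratio of -0.00749, when ratios were centred on the median gene. Il6ra overlaps the annotated antisense gene Gm42809, so its reads may include that gene's.

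Many other receptor chains of the same families were sparser, but not all. Il27ra, named here although it falls outside the rule for named genes, was at 184 and 185 FPKM. The list of other class I chains, the family of Il2rg and Il6st, held 26 genes. Il2ra was counted with them although it is not of that family. Of the 26, 11 had a mean of 1 FPKM or more, with 4 higher, 7 lower and a median log2 ratio of -0.15. Past a log2 ratio of 0.3219 there were 2 higher and 4 lower genes, where 17.8% and 14.1% of all genes were, and 0 were past 2-fold on that scale. On the same scale the highest ratios were those of Il9r, at 1.99 and 1.18 FPKM, and Csf3r, a neutrophil growth factor receptor, at 1.31 and 0.828 FPKM. The lowest were Lepr, the leptin receptor, at 0.790 and 1.93 FPKM (2.45-fold lower by FPKM itself, 1.59 to 3.85), and Crlf2, which binds TSLP, at 9.68 and 12.6 FPKM. Of 8 other class II chains, the family of the interferon receptors, 3 were compared and all 3 were lower, with a median of -0.28, which became -0.01 with no filter on low values. Besides Ifnar2 and Il10rb this was Il10ra, the ligand-binding chain for interleukin 10, at 21.2 and 24.3 FPKM. Il10ra had a ratio of 0.874 (0.783 to 0.974).

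Ligands and signalling proteins were counted in the same way. Of 21 ligand genes 6 were compared, with 2 higher, 4 lower, 0 past the lower threshold and a median of -0.04. Clcf1, a gp130 ligand, was at 22.9 and 19.9 FPKM, Osm, another, at 15.0 and 14.2 FPKM, Il21 at 9.89 and 11.0 FPKM, and Il2 at 2.99 and 3.52 FPKM. All 11 kinases and STAT factors were compared, with 4 higher, 7 lower, 0 past 2-fold, 1 (Jak2) just past a log2 ratio of 0.3219 and a median of -0.04. Jak2, the kinase of Ifngr2, was at 26.7 and 21.2 FPKM, for a ratio of 1.26 (1.16 to 1.37), and Stat6, which acts below Il4ra, at 150 and 125 FPKM, for a ratio of 1.20. Stat3 was at 128 and 142 FPKM and Stat5b at 58.1 and 62.5 FPKM. Ratios above 1 were thus seen for Ifngr2 and its kinase Jak2, while Il4ra and its factor Stat6 lay on opposite sides of 1. The other kinases, named here although they fall outside the rule for named genes, were Jak1, Jak3 and Tyk2. Their ratios were 1.12 (1.09 to 1.15), 1.11 (1.06 to 1.17) and 0.972 (0.895 to 1.06). A ratio above 1 was thus not particular to Jak2, and Jak1 and Ifngr1, at 0.800, lay on opposite sides of 1.

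Of 11 negative regulators of these receptors 10 were compared, with 8 higher and 2 lower, where 52.7% of all genes were higher, and the median was 0.11. Past a log2 ratio of 0.3219 were 3 of the higher genes and 1 of the lower, where 17.8% and 14.1% of all genes were. Ptpn6, the phosphatase SHP-1, was at 441 and 269 FPKM, for a ratio of 1.64 (1.59 to 1.70), and Socs6 at 11.3 and 8.35 FPKM. Socs2 was lower, at 7.52 and 11.3 FPKM, for a ratio of 0.664 (0.535 to 0.822), and Usp18, which restrains type I interferon receptors, was at 34.6 and 35.6 FPKM. Ptpn6 is also expressed by B cells and myeloid cells, whose summed markers are given above, and their part in its ratio was not tested.

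Genes that the receptors are known to switch on were mixed for the interleukins and lower for type I interferon. The STAT5 list (11 of 12 compared, 6 higher, 5 lower) had a median of 0.02, with Bcl2 at 109 and 58.2 FPKM and Prf1 at 49.9 and 36.3 FPKM at the upper end, and Gzmb at 16.8 and 43.8 FPKM and Socs2 at the lower. The STAT3 list (9 of 10 compared, 3 higher, 6 lower) had a median of -0.03, with Maf at 7.74 and 5.52 FPKM and Socs3 at 119 and 91.9 FPKM among the higher genes and Pim1 at 126 and 176 FPKM among the lower. In the type I interferon list 11 of 12 genes were compared and all 11 were lower, 4 of them at least 2-fold (1.98% of all genes compared were), with a median of -0.37. At the lower end Rsad2 was at 0.981 and 3.66 FPKM and Ifi44 at 1.60 and 4.95 FPKM. At the upper end Usp18 was at 34.6 and 35.6 FPKM and Irf9 at 76.5 and 79.6 FPKM. The receptor genes Ifnar1 and Ifnar2 had ratios of 0.933 and 0.824. In the interferon gamma list 14 of 16 genes were compared, 5 higher and 9 lower, 0 past 2-fold, with a median of -0.06. Gbp4 was at 77.0 and 59.4 FPKM, Gbp5 at 4.13 and 3.48 FPKM, Irgm2 at 22.6 and 32.1 FPKM and Cxcl10 at 3.48 and 5.04 FPKM. Some of these lists share genes, and that the type I interferon genes were lower was known from earlier results on these libraries.

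**Figure D4:**
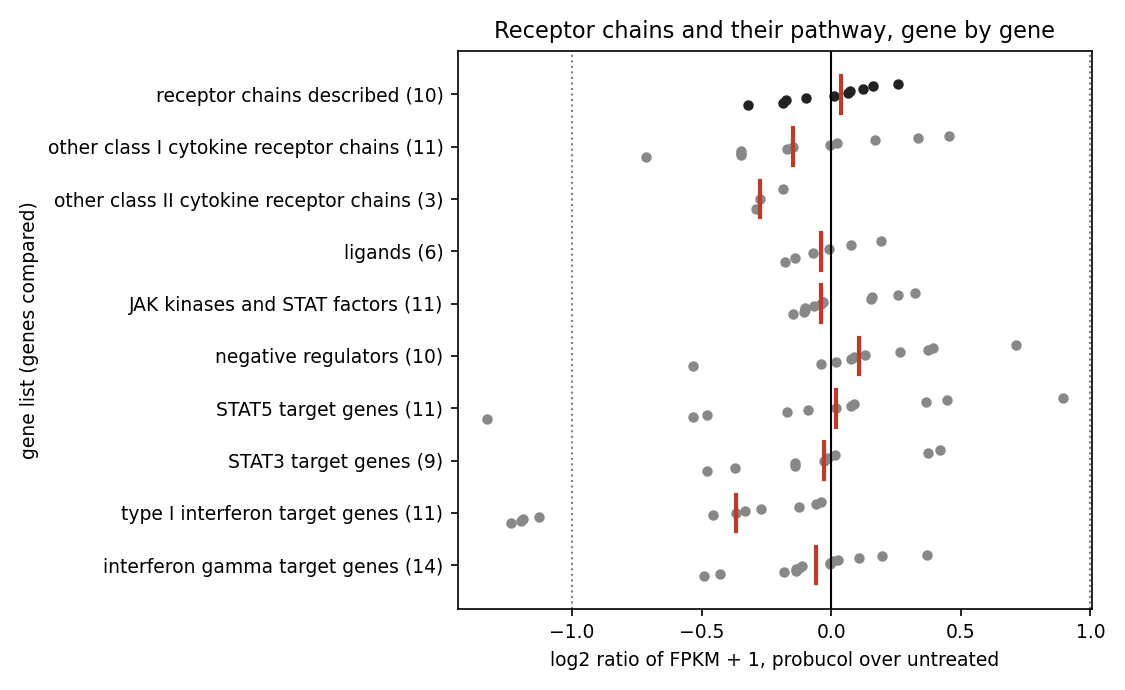
Log2 ratio of FPKM + 1, probucol over untreated, for each gene with a mean of 1 FPKM or more in the receptor, ligand, signalling and target lists, with the number of genes compared in parentheses and the list median as a red bar. The solid line marks equality and the dotted lines 2-fold. The 10 receptor chains lie between -0.32 and 0.26, while 4 type I interferon target genes lie below -1.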

How the data were processed

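The values deposited by the authors are FPKM, 1 for each symbol in each table, per the file headers. The submitters' processing notes name build mm10 and the tools TopHat2 2.1.1, Bowtie2 and Cuffdiff 2.2.1 without saying what each did. Annotation, read filters and scaling across libraries: not given in the sources used here. Per the labels' protocols, cDNA came from a SMART-Seq HT kit and libraries from a Nextera kit. No molecular identifiers or strand information are named, so PCR copies count as fragments.

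From these values log2((FPKM + 1) of probucol over untreated) was computed with Python 3.11.15, numpy 2.4.6, pandas 2.3.3 and scipy 1.17.1. The added 1 understates changes of low genes, and printed ratios are of FPKM itself. No count model or test was used. Depth was estimated from steps in low FPKM values of genes with 1 transcript of 800 to 10000 bp in the GENCODE M21 basic set (GRCm38, the assembly of mm10). After subtracting 210 bp from each length, 1 fragment on 1 kb was worth 0.1004 FPKM in the probucol library and 0.1002 in the untreated one, and 75.0% and 76.6% of the low values came within 0.1 of whole fragments. Fragments per gene used the median transcript length. Intervals are at 95%: exact Poisson for a level, exact binomial (Clopper-Pearson) for a ratio of 2 levels, and a normal approximation on the log scale for a ratio of ratios. They cover counting error only, and nothing here shows how much separate animals or preparations vary. The scripts were tested on simulated data.

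The 10 genes and all lists were chosen with earlier results of these data known. Named genes were the 10, the chains Il2ra, Il7r and Ifnar2, and up to 2 genes with the highest and 2 with the lowest ratio (on the scale of FPKM + 1) of each pathway list. Of each marker list at most 2 genes are named. Promoter sequences are RefSeq's. Figures were drawn with matplotlib 3.10.9.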

Additional observations from a re-analysis of the deposited data

How the results depend on the processing

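Of 50 ratios of the 10 genes recomputed under 5 alternatives (pseudocounts 0.1, 5 and none, equal library sums, centring on the median gene), all 50 stayed within the gene's counting interval and 1 changed sign, that of Il6st, to -0.00749 with centring. Other filters on low values cannot move the ratio of a gene that passes them, and all 10 did. The filter at 10 FPKM, the natural killer sum without Prf1 and the ratio without pseudocount were chosen after seeing the data. The count past 2-fold was 0 throughout. The count past a log2 ratio of 0.3219 became 1 (Ifngr1) with centring and 1 with no pseudocount. The median of the 10 ran from 0.02 with centring to 0.06 with equal sums. With the longest transcripts, 1 in place of 2 neighbouring pairs of levels overlapped with probucol. The median of the ligand list became 0.00405 at a mean of at least 10 FPKM. The fragments behind Il15ra limit its ratio most. Those of Il6st depended on the transcript length taken, with 860 and 855 for the median and 2834 and 2820 for the longest. With the longest its ratio interval was 0.956 to 1.06. No paired analysis was possible because each group has 1 library.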
